A study of Mus musculus with 2 samples.

Results

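The genes described here were 6 receptors of the NK-type lectin family that T cells can carry, Klrd1, Klrc1, Klrc2, Klre1, Klrk1 and Klrg1, together with 2 associated genes, Hcst and Nkg7. They were taken by symbol, and all 8 were found among the 32285 genes of the series. Unique molecular identifiers (UMIs, each a tag for 1 captured RNA molecule) were counted by single-cell RNA-seq in 2 libraries of donor T cells, 1 from day +7 and 1 from day +14 after allogeneic hematopoietic cell transplantation (allo-HCT). Recipients were lethally irradiated BALB/c mice (H-2d) given T cell–depleted bone marrow and purified splenic T cells from wild-type C57BL/6 donors (H-2b), a model of acute graft-versus-host disease (aGvHD). Spleen cells that were CD45+, H2Kb+, H2Kd- and TCRβ+ were sorted, and suspensions were pooled before capture. The library names of both groups carry the word PBS, and the day is the only labelled difference between them, although the protocol text gives day +7 as the sort of both. Each day was 1 library, so no comparison had a replicate check, no p-value is given, and the library cannot be told apart from the day. The brackets throughout are 95% exact intervals that cover counting error only.

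CD94, the product of Klrd1, is a lectin-like chain that reaches the cell surface as a heterodimer with an NKG2 chain and binds the nonclassical class I molecule Qa-1, encoded by H2-T23. With NKG2A, from Klrc1, the receptor is inhibitory and recruits phosphatases, whereas with NKG2C, from Klrc2, it is activating. NKG2D, from Klrk1, is an activating homodimer that signals through the adaptor DAP10, from Hcst, and binds stress-induced ligands. These receptors are best known from NK cells and are also gained by CD8+ T cells after activation.

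On mouse chromosome 6 (GRCm38/mm10, GENCODE M21), 5 of the 8 genes lie within 101 kb. Klre1 (chr6:129577905-129585827, plus strand) ends 5.95 kb before Klrd1 (chr6:129591782-129598775, plus strand), and Klrk1 (chr6:129610323-129623864), Klrc2 (chr6:129647496-129660689) and Klrc1 (chr6:129666015-129678973) follow on the minus strand. Klrg1 (chr6:122270596-122282882, minus strand) lies apart on the same chromosome, and Hcst (chr7:30417712-30419854, minus strand) and Nkg7 (chr7:43437073-43438249, plus strand) are on chromosome 7. No other annotated gene overlaps any of the 8. Klrc1 and Klrc2 share sequence, read here in 90-base windows of the last 500 bases of their coding transcripts. Of these windows, 21.9% of those of Klrc1 also occur in Klrc2, and 8.49% of those of Klrc2 occur in Klrc1 or Klrc3. UMIs of such stretches could be assigned to the wrong gene or to none, so the counts of both genes are uncertain. The other 6 genes share no such window with another gene.

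RefSeq promoters (GRCm38.p6) were at hand for 6 of the 8 genes, and the 250 bases before the start site are shown for the inhibitory NKG2A gene and the activating NKG2D gene, neighbours whose levels are given below. Both hold a core motif of RUNX factors, which act in the CD8+ lineage, and capitals mark it. The letters were TGTGGT and, on the other strand, ACCACA, and 14.0% of 32851 promoters held them in the same window. The sequences read 5′ to 3′ on the gene's own strand, for Klrc1 at chr6:129678974-129679223 (minus) and for Klrk1 at chr6:129623865-129624114 (minus).
Klrc1: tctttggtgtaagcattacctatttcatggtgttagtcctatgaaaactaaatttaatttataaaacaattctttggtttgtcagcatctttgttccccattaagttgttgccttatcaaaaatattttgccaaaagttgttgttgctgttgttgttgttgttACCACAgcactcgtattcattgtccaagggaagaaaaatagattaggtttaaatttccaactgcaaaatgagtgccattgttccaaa
Klrk1: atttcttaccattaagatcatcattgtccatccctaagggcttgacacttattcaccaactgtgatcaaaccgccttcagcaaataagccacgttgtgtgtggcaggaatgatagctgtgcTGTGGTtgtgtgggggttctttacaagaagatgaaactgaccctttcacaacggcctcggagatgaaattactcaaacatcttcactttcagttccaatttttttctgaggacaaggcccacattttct
The match began 87 bases before the start site in Klrc1 and 129 bases before it in Klrk1. Klrc2, Klre1 and Nkg7 held the motif too, so 5 of 6 genes did in at least 1 promoter, and Hcst did not. Klre1 had a further promoter without the motif and Klrc2 a further one with it, while the 14.0% counts promoters, not genes. The T-box letters GGTGTGA or TCACACC were found in 1 of the 6, Nkg7, and in 3.33% of promoters, and the AP-1 letters TGACTCA or TGAGTCA in 0 of the 6 and in 4.46% of promoters. A match describes letters only.

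The kept cells numbered 7179 at day +7 and 7794 at day +14, with medians of 9210 and 8144 UMIs and 17 cell barcodes in common. Gates were read after each cell was thinned to 4000 UMIs, which left out 198 and 969 shallower cells. The CD8 gate (Cd8a or Cd8b1 detected, Cd4 not) held 5555 and 5487 T cells and the CD4 gate (the reverse) 327 and 397. T cells with neither detected numbered 823 and 625, more than the CD4 gate, and those with both 55 and 188. Such cells lie outside the 2 gates. The 138 and 65 kept cells with at most 2 UMIs of the T cell genes are called non-T. CD8 gate cells were divided into G2/M (2793 and 3015), S (756 and 1072) and low-cycling (2006 and 1400) by whether at least 3 of 10 genes of a phase had a UMI. Of these cells, 34.1% and 32.1% lay near a limit, so the classes are ranges, not cell types. In UMIs that the gates had not used, Cd8b1 was at 674 and 514 CPM (CPM is a gene's summed UMIs over all UMIs of the same cells, on the usual scale) in the CD8 gate, 31.3 and 35.2 CPM in the CD4 gate and 14.7 and 7.76 CPM in non-T cells. The 6 T cell receptor complex genes summed to 6025 and 7642 CPM in the CD8 gate. The 6 NK cell markers summed to 9.70 CPM on day +7 against 1.67 CPM on day +14, none reached 10 CPM, and Klra4 and Klra8 were at 0.

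Transcripts of these receptors were common in CD8 gate cells and less so in CD4 gate cells. At 4000 UMIs per cell, any of the 6 receptors was found in 82.7% [81.7, 83.7] of CD8 gate cells on day +7 against 74.4% [73.2, 75.5] on day +14. For the CD4 gate the shares were 51.7% [46.1, 57.2] and 38.3% [33.5, 43.3]. Non-T cells, which should lack most of these transcripts, gave 5.07% [2.06, 10.2] and 9.23% [3.46, 19.02], below both T cell gates. Median depths before thinning were 9349 and 9432 UMIs in the CD8 gate, 7891 and 6251 in the CD4 gate and 28065 and 8929 in non-T cells.

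**Figure D1:**
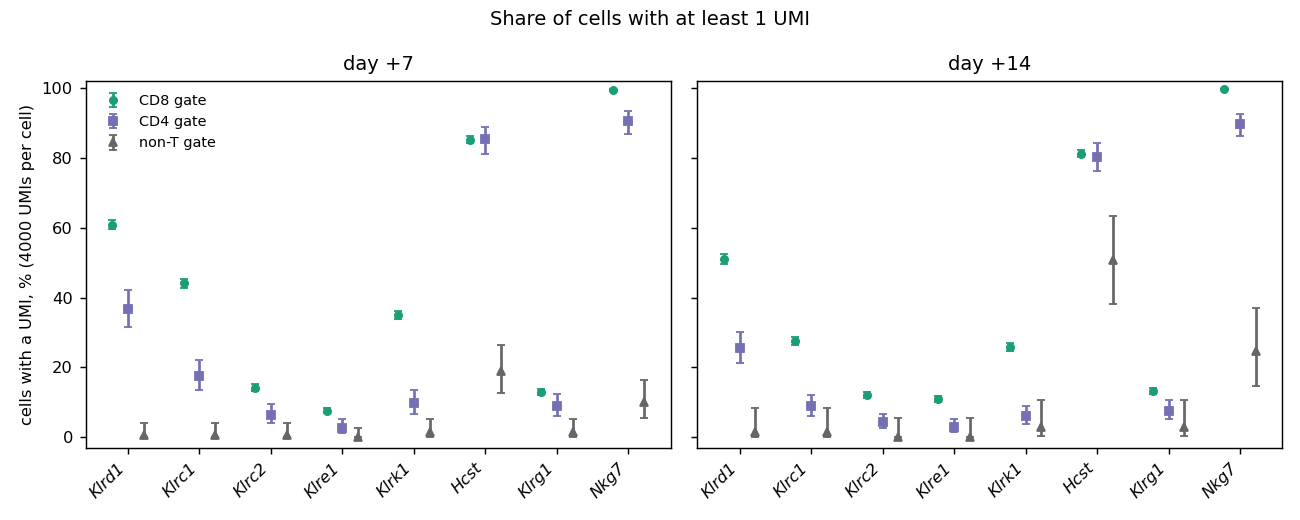
Percent of cells with at least 1 UMI of each gene (y axis, at 4000 UMIs per cell) in the CD8 gate (circles), CD4 gate (squares) and non-T cells (triangles), day +7 on the left and day +14 on the right. Points are shares within 1 library and bars are 95% exact binomial intervals. Klrd1 was in 60.9% of CD8 gate cells at day +7 and 51.1% at day +14, and Nkg7 in over 99% on both days.

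Klrd1, the shared CD94 chain, was lower at day +14 in CD8 gate cells of every cycling class. It was at 341 CPM [337, 346] on day +7 against 239 CPM [235, 242] on day +14, from 22494 and 15848 UMIs. The log2 ratio of day +14 over day +7, taken after adding 1 CPM to both levels, was -0.52 [-0.55, -0.49]. The bracket of a log2 ratio is that of the ratio with no CPM added, so for low levels it lies farther from 0 than the value does. A Klrd1 UMI was found in 60.9% [59.6, 62.2] and 51.1% [49.8, 52.4] of thinned cells (78.7% and 72.6% unthinned), against 0.725% and 1.54% of non-T cells. The log2 ratio was -0.47 [-0.52, -0.41] in low-cycling cells, -0.40 [-0.47, -0.32] in S cells and -0.36 [-0.40, -0.32] in G2/M cells.

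Klrc1, which encodes the inhibitory chain NKG2A, had the lowest log2 ratio of the 8 genes. Its level was 157 CPM [154, 160.4] on day +7 against 84.7 CPM [82.5, 86.9] on day +14, which gave a log2 ratio of -0.89 [-0.94, -0.85]. The share of CD8 gate cells with a UMI was 44.1% [42.8, 45.5] and 27.5% [26.3, 28.7], against 0.725% and 1.54% of non-T cells. The lower level was found in each cycling class, at -0.65 [-0.75, -0.55] in low-cycling, -0.93 [-1.06, -0.81] in S and -0.88 [-0.95, -0.83] in G2/M cells.

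Cells with transcripts of both CD94/NKG2A chains were fewer at day +14, while those with Klrd1 and none of Klrc1, Klrc2 and Klre1 detected were not. Klrd1 and Klrc1 were found together in 30.6% [29.4, 31.8] of CD8 gate cells at day +7 and 16.6% [15.6, 17.6] at day +14. Klrd1 with none of Klrc1, Klrc2 and Klre1 was found in 24.1% [22.97, 25.2] and 26.2% [25.03, 27.4]. This class is not one of Klrd1 without any partner. It leaves out cells with Klre1, whose product is known to pair with the KLRI receptors. Klrc3, with 71 and 59 UMIs in the CD8 gate, did not enter the definition. Klrc1 without Klrd1 made up 13.5% [12.6, 14.5] and 10.8% [10.03, 11.7]. At 4000 UMIs a transcript that is present can be missed, so these shares are of detected pairs. They also depend on the single shares of Klrd1 and Klrc1 given above, and are not a separate result. The shares to be expected from the single shares were not computed.

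Klrc2, which encodes the activating chain NKG2C, differed less between days. It was at 39.1 CPM [37.6, 40.6] on day +7 against 31.2 CPM [29.9, 32.6] on day +14, which gave a log2 ratio of -0.32 [-0.41, -0.24]. In low-cycling cells the interval included 0, at -0.063 [-0.23, 0.11]. Klrc1 without Klrc2 was found in 35.97% [34.7, 37.2] of CD8 gate cells at day +7 and 22.7% [21.6, 23.9] at day +14, Klrc2 without Klrc1 in 6.07% [5.45, 6.73] and 7.42% [6.74, 8.14], and both in 8.17% [7.47, 8.92] and 4.72% [4.17, 5.32]. Cells with the inhibitory chain were thus fewer at day +14 with or without the activating one, within the limit set by the sequence the 2 genes share.

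Klre1, a lectin-like chain known to pair with the KLRI receptors, was higher at day +14. It was at 23.2 CPM [22.03, 24.4] on day +7 against 34.8 CPM [33.4, 36.3] on day +14, which gave a log2 ratio of 0.57 [0.49, 0.68]. Its UMIs were in 7.54% [6.86, 8.27] and 10.9% [10.1, 11.8] of CD8 gate cells, and in 0 of 138 and 0 of 65 thinned non-T cells, which allows shares of up to 2.17% and 4.62% by a limit of 3 cells and 2.64% and 5.52% by the exact interval. Unthinned, 1.45% and 1.54% of non-T cells held a Klre1 UMI. The ratio was 0.47 [0.30, 0.65] in low-cycling, 0.34 [0.11, 0.59] in S and 0.86 [0.77, 1.03] in G2/M cells. Klri1 had 0 UMIs at day +7 and 1 at day +14 in the whole CD8 gate, and Klri2 had 13 and 26.

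Klrk1, which encodes NKG2D, was lower at day +14, and its adaptor gene Hcst less so. Klrk1 was at 132 CPM [129, 135] and 89.4 CPM [87.2, 91.7], a log2 ratio of -0.56 [-0.61, -0.51], with a UMI in 34.98% [33.7, 36.2] and 25.8% [24.7, 27.02] of CD8 gate cells. Non-T cells gave 1.45% and 3.08%. Hcst was at 561 CPM [555, 567] and 467 CPM [462, 473], a log2 ratio of -0.26 [-0.29, -0.24]. In low-cycling cells Hcst was at 955 CPM [939, 971] and 958 CPM [938, 979], a ratio of 0.0053 [-0.034, 0.044] whose interval included 0, and in S cells at -0.012 [-0.067, 0.044], so the lower level was found in G2/M cells alone, at -0.27 [-0.30, -0.24], whereas Klrk1 was lower in low-cycling cells too, at -0.51 [-0.61, -0.42]. Low-cycling cells, where Hcst was highest, numbered 2006 at day +7 and 1400 at day +14. The receptor and its adaptor were found together in 31.3% [30.1, 32.5] and 21.5% [20.4, 22.6] of CD8 gate cells, and Klrk1 without Hcst in 3.71% [3.23, 4.24] and 4.37% [3.85, 4.95]. Hcst was also found in 18.8% [12.7, 26.4] and 50.8% [38.1, 63.4] of non-T cells, and the part of free RNA or of other cells in that share was not tested.

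Klrg1, an inhibitory receptor for cadherins that marks terminal effector CD8+ T cells, was at like levels on the 2 days in the CD8 gate. It was at 40.3 CPM [38.8, 41.9] on day +7 against 42.4 CPM [40.8, 43.97] on day +14 in the CD8 gate, a log2 ratio of 0.070 [-0.0057, 0.15] whose interval included 0. Its UMIs were in 12.98% [12.1, 13.9] and 13.3% [12.4, 14.2] of these cells, against 1.45% and 3.08% of non-T cells. The ratio was 0.16 [0.070, 0.26] in G2/M cells and -0.16 [-0.35, 0.025] in low-cycling cells.

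Nkg7, a membrane protein of cytotoxic granules, was found in nearly all CD8 gate cells and was higher at day +14. It was at 2034 CPM [2023, 2045] and 2401 CPM [2389, 2412], a log2 ratio of 0.24 [0.23, 0.25], and in low-cycling cells the ratio was 0.39 [0.37, 0.41]. Its UMIs were in 99.4% and 99.7% of CD8 gate cells and in 90.5% and 89.7% of CD4 gate cells, against 10.1% and 24.6% of non-T cells. Scaling by the median ratio of all genes in place of total UMIs shifted the CD8 gate log2 ratios down by 0.22. The values were then 0.020 for Nkg7 and -0.15 for Klrg1, while Klrc1 was at -1.10 and Klre1 at 0.35.

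**Figure D2:**
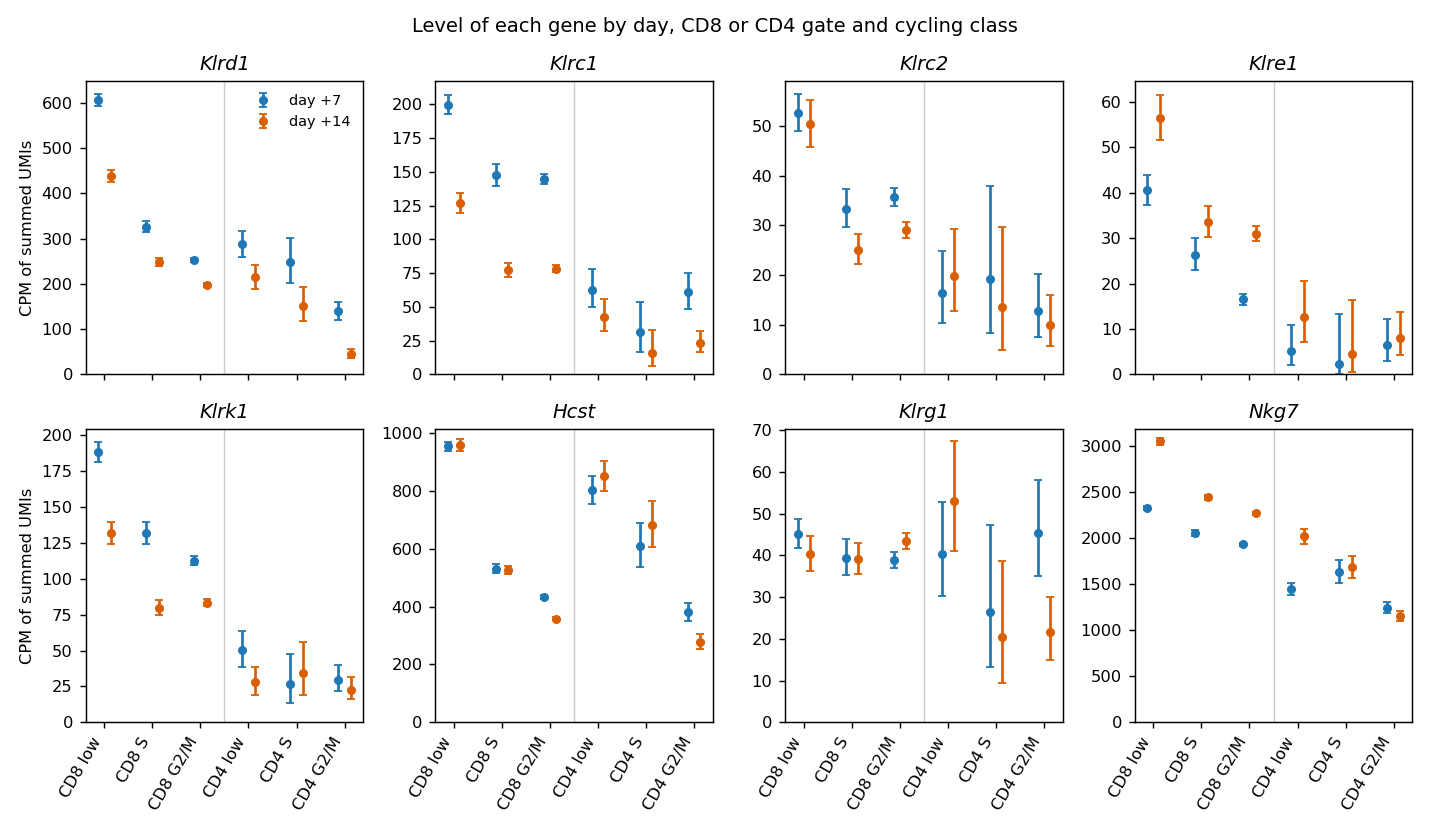
Level of each gene (y axis, CPM of summed UMIs, from 0) in low-cycling, S and G2/M cells of the CD8 gate (left of the grey line) and CD4 gate (right), day +7 in blue and day +14 in orange. Points are sums over the cells of 1 library and bars are 95% exact Poisson intervals. Klrd1 and Klrk1 were highest in low-cycling CD8 cells of day +7, at 607 and 188 CPM, and Klre1 and Nkg7 in those of day +14, at 56.4 and 3047 CPM.

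Over these 12 groups of cells, low-cycling CD8 cells had the highest level of all genes but Klrg1, and the lowest level of each gene was in a CD4 class. The highest levels of Klrc2 and of Hcst overlapped the next in order, which was the same class on the other day. For Klrg1 the highest level, 53.1 CPM [41.2, 67.4] in low-cycling CD4 cells of day +14, overlapped the next as well. In the whole CD4 gate of that day, 9 cells with a Foxp3 UMI held 46 of the 111 Klrg1 UMIs. The other cells of that gate were at 19.9 CPM [15.3, 25.3]. The lowest levels of Klrd1 and Hcst did not overlap the next, and those of the other 6 genes did. The lowest Klrd1 level was 45.7 CPM [35.9, 57.3] in G2/M CD4 cells of day +14. Klrk1 was at 22.8 CPM [16.1, 31.5] in the same cells, and the next level, 26.5 CPM [13.2, 47.4] in S CD4 cells of day +7, overlapped it.

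Of the 8 genes, 3 had a higher and 5 a lower level at day +14 in the CD8 gate, and their median log2 ratio was -0.29. Across all 6824 genes that averaged 10 CPM or more, the median was 0.19 and 73.8% were above 0. Klrc1, Klrk1 and Klrd1 lay near the low end, with 1.63%, 2.96% and 3.34% of genes below them, and 9.36% of genes lay above Klre1. In the CD8 gate none of the 8 differed 2-fold in either direction, where 1.8% of genes were at least 2-fold higher and 1.36% at least 2-fold lower. T cells with no Cd4 or Cd8 UMI after thinning had Klrc1 at 112 and 33.7 CPM and Klrd1 at 211 and 97.5 CPM. There Klrk1 was at 65.2 and 30.6 CPM, Klrc2 at 26.2 and 12.1 CPM and Klrg1 at 30.6 and 43.6 CPM. Klre1 was at 11.7 and 11.5 CPM, Hcst at 479 and 370 CPM and Nkg7 at 1550 and 1525 CPM. Shares over all genes were not computed for these cells.

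The summed level of the 6 NK cell markers was lower at day +14, as were Klrd1, Klrc1 and Klrk1. In UMIs of the CD8 gate, Klrb1c went from 450 to 35, Klra7 from 148 to 44 and Ncr1 from 37 to 1, Klra9 went the other way from 4 to 31, and Klra4 and Klra8 were at 0. CD8 gate cells with any NK marker UMI made up 6.84% at day +7 and held from 7.59% (Nkg7) to 15.7% (Klre1) of a gene's UMIs, and 1.53% at day +14 with 1.98% (Hcst) to 3.06% (Klrg1). Without those cells, an alternative chosen after seeing the data, the log2 ratio was -0.48 for Klrd1, -0.85 for Klrc1, -0.51 for Klrk1 and 0.70 for Klre1.

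**Figure D3:**
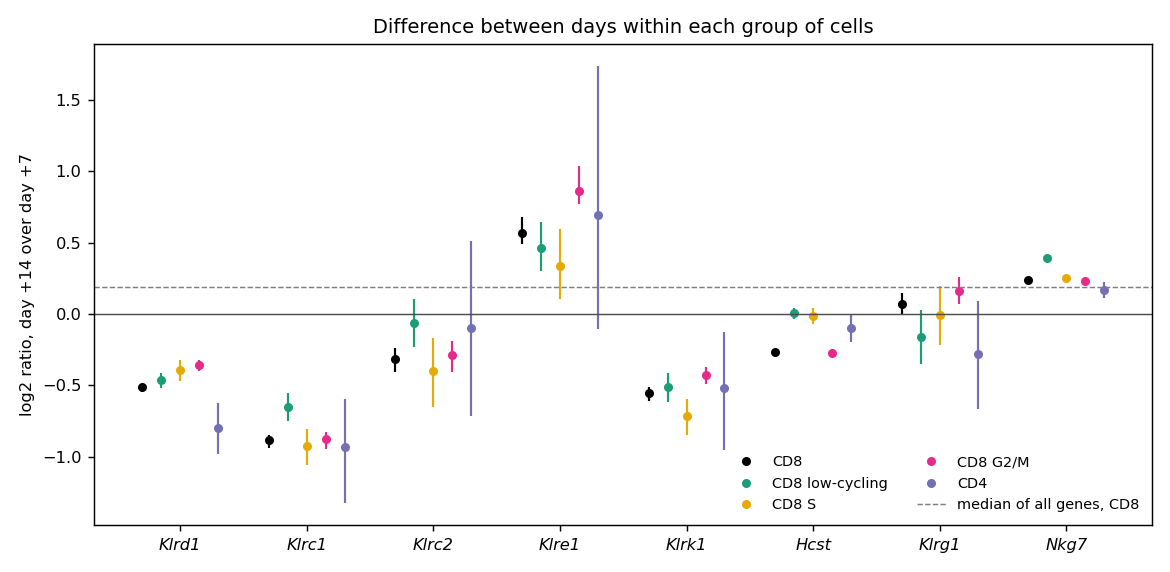
Log2 ratio of day +14 over day +7 (y axis) for each gene in the CD8 gate, its 3 cycling classes and the CD4 gate. Points are log2 ratios of CPM with 1 CPM added, vertical lines are 95% exact counting intervals, and the dashed line is the median of all genes in the CD8 gate, 0.19. Klrd1, Klrc1 and Klrk1 lay below 0 in all 5 groups of cells, and Klre1 lay above 0 in all 5, with an interval that included 0 in the CD4 gate.

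In the CD4 gate, Klrd1, Klrc1 and Klrk1 were again lower at day +14. Klrd1 was at 216 CPM [200.4, 233] and 124 CPM [112, 137], a log2 ratio of -0.80 [-0.98, -0.62], and Klrc1 at 57.9 CPM [49.8, 66.9] and 29.8 CPM [24.2, 36.3], a ratio of -0.94 [-1.33, -0.60]. Klrk1 was at 37.96 CPM [31.5, 45.4] and 26.2 CPM [20.97, 32.3], a ratio of -0.52 [-0.95, -0.13]. The intervals of Klrc2, at -0.096 [-0.71, 0.51], Klre1, at 0.70 [-0.10, 1.74], and Klrg1, at -0.28 [-0.67, 0.089], included 0. For Klrg1, cells of this gate without a Foxp3 UMI were lower at day +14, at 33.7 CPM [27.5, 40.8] and 19.9 CPM [15.3, 25.3]. The 8 and 9 cells with a Foxp3 UMI were higher, at 329 CPM [213, 486] and 945 CPM [692, 1261]. Klrg1 UMIs were in 4 of these cells at day +7 and 8 at day +14, with up to 11 and 9 UMIs in 1 cell. Their median depths were 8365.5 and 4638 UMIs, and Klrg1 averaged 3.1 and 5.1 UMIs per cell. The part of depth in the CPM values was not tested. Nkg7 was at 0.17 [0.11, 0.23] and Hcst at -0.10 [-0.19, -0.0062]. Of the 8 genes, 7 reached a mean of 10 CPM here and Klre1 did not, and 0 differed 2-fold in either direction, where 3.49% of 6984 genes were at least 2-fold higher and 1.25% at least 2-fold lower.

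Values of the day difference varied between the CD4 cycling classes in size or sign, with intervals that overlapped for Klrc1 and Klrk1. In G2/M cells (103 and 122), Klrd1 was at 139.8 CPM [121, 161] and 45.7 CPM [35.9, 57.3], a log2 ratio of -1.59 [-2.02, -1.22], Klrc1 gave -1.34 [-1.97, -0.81] and Klrg1 -1.04 [-1.71, -0.46], so 3 of 8 were at least 2-fold lower where 1.9% of 6837 genes were. In low-cycling cells (181 and 217) the same genes gave -0.42 [-0.65, -0.19], -0.54 [-1.07, -0.044] and 0.39 [-0.14, 0.94]. Klrk1 went the other way, at -0.37 [-1.06, 0.29] in G2/M and -0.83 [-1.49, -0.24] in low-cycling cells. In S cells Klrk1 was at 26.5 CPM [13.2, 47.4] and 34.0 CPM [19.04, 56.1]. The difference between the classes was not tested.

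Klrd1 UMIs of the CD4 gate were held by fewer cells than those of the CD8 gate. The tenth of CD4 gate cells with the most Klrd1 held 60.9% of its thinned UMIs at day +7 and 71.2% at day +14, against 38.3% and 44.4% in the CD8 gate. Cells with 5 or more Klrd1 UMIs made up 7.34% and 4.28% of the CD4 gate and 10.5% and 5.30% of the CD8 gate. The variance of thinned Klrd1 UMIs per cell over their mean was 4.35 and 3.96 in the CD4 gate. In the CD8 gate it was 2.62 and 2.48, where independent UMIs would give a variance equal to the mean. Among UMIs the gates had not used, Cd8b1 was found in 7.65% and 7.56% of CD4 gate cells, and its part in these values was not tested.

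Within a library, 4 receptors were at least 2-fold higher in the CD8 gate than in the CD4 gate on both days: Klre1, Klrk1, Klrc1 and Klrc2. At day +7 their log2 ratios of CD8 over CD4 were 1.92 [1.42, 2.89], 1.77 [1.54, 2.07], 1.43 [1.23, 1.66] and 1.31 [0.95, 1.81] in that order, where 0.756% of 6614 genes were at least 2-fold higher. At day +14 they were 1.80 [1.39, 2.46], 1.73 [1.47, 2.09], 1.48 [1.22, 1.81] and 1.09 [0.73, 1.59], where 0.683% of 7177 genes were. Klrd1 gave 0.66 [0.55, 0.77] and 0.94 [0.80, 1.09], and Nkg7 0.56 [0.52, 0.60] and 0.63 [0.59, 0.67]. In low-cycling cells alone 5 of 8 were at least 2-fold higher on each day, where 1.32% and 1.22% of genes were, with Klrd1 at 1.08 [0.93, 1.23] and 1.03 [0.85, 1.21]. With gates at 2 UMIs of the CD4 or CD8 genes, Klrc2 gave 0.86 and 0.40, no longer 2-fold, and with thinning to 2000 UMIs it gave 0.89 at day +14, while Klre1, Klrk1 and Klrc1 stayed above 1 on both days under both settings. Klrd1 gave 0.47 and 0.47 with gates at 2 UMIs, and 0.90 and 0.44 with thinning to 2000 UMIs. Nkg7 gave 0.50 and 0.29, then 0.43 and 0.35.

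Hcst and Klrg1 gave small ratios between the gates whose size or sign depended on the processing. Hcst gave -0.070 [-0.14, -0.0018] at day +7 and -0.23 [-0.30, -0.16] at day +14, and the day +7 value was 0.081 with gates read from all UMIs. With gates at 2 UMIs it gave -0.24 and -0.56, and with thinning to 2000 UMIs -0.64 at day +14. Klrg1 gave -0.017 [-0.27, 0.25] and 0.33 [0.069, 0.63], and the day +14 value was -0.026 as a mean over cells. With gates at 2 UMIs it gave 0.39 and 0.64. In the CD4 gate, the 8 and 9 cells with a Foxp3 UMI after thinning held 25 of 129 and 46 of 111 Klrg1 UMIs. The other CD4 gate cells, 319 and 388, were at 33.7 CPM [27.5, 40.8] and 19.9 CPM [15.3, 25.3]. The CD8 gate was at 40.3 and 42.4 CPM.

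Relative to all UMIs, most of the 8 genes were lower in G2/M than in low-cycling CD8 cells. At day +7 the log2 ratio was -1.26 [-1.30, -1.22] for Klrd1, -1.24 [-1.45, -1.13] for Klre1 and -1.14 [-1.17, -1.11] for Hcst, so 3 of 8 were at least 2-fold lower, where 1.5% of 6522 genes were. At day +14 it was -1.42 [-1.46, -1.38] for Hcst and -1.15 [-1.21, -1.10] for Klrd1, so 2 of 8 were, against 2.26% of 7039 genes. With thinning to 2000 UMIs only 1 gene a day stayed 2-fold lower: at day +7 Klrd1 was at -1.04, Klre1 at -0.96 and Hcst at -0.91, and at day +14 Hcst was at -1.17 and Klrd1 at -0.93. As a mean over cells Hcst was at -0.96 at day +7. Klrg1 was nearest to even, at -0.21 [-0.35, -0.085] and 0.11 [-0.053, 0.27], and Nkg7 gave -0.27 [-0.29, -0.25] and -0.43 [-0.45, -0.41].

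G2/M cells held more RNA, with medians of 13095 and 12888 UMIs against 6671.5 and 5632, and per cell the genes divided differently. Klrd1 averaged 4.42 UMIs per low-cycling cell and 3.87 per G2/M cell at day +7, and 2.81 and 3.02 at day +14. Hcst averaged 6.95 and 6.60, then 6.14 and 5.48. Klrc1, whose share of UMIs was lower in G2/M cells at -0.46 [-0.53, -0.40] and -0.69 [-0.79, -0.60], had more UMIs per G2/M cell, 2.21 against 1.45 at day +7.

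In low-cycling CD8 cells thinned to equal depth, several genes of the chromosome 6 cluster were higher in cells with a UMI of another. Klre1 was at 57.7 CPM in cells with a Klrd1 UMI and 6.90 CPM in cells without at day +7, and at 88.1 and 10.7 CPM at day +14, log2 ratios of 2.89 [2.30, 3.95] and 2.92 [2.40, 3.75]. Klrk1 in the same split was at 237 against 82.8 CPM and at 178 against 63.4 CPM, ratios of 1.51 [1.28, 1.76] and 1.47 [1.21, 1.78]. The NKG2 chain genes, whose products bind CD94, gave smaller ratios with Klrd1, 0.74 [0.56, 0.94] and 0.89 [0.65, 1.16] for Klrc1 and 0.65 [0.30, 1.04] and 0.67 [0.29, 1.08] for Klrc2. Klre1 also went with Klrk1, at 2.19 [1.90, 2.63] and 2.01 [1.72, 2.38]. The inhibitory and activating chains were found together too: Klrc2 was at 69.2 CPM with and 40.6 CPM without a Klrc1 UMI at day +7, and at 69.2 and 43.1 CPM at day +14. These 2 genes share sequence, and the part of that in this difference was not tested. Without cells holding an NK marker UMI the Klre1 ratio with Klrd1 was 2.68 and 2.91, and without the highest doublet scores 2.96 and 2.91. Ratios above 0 were not limited to genes of the cluster. In the whole CD8 gate at day +7, a split by Gzma gave 1.41 [1.05, 1.94] for Klre1. For Klrk1 it gave 0.80 [0.65, 0.97] and for Klrd1 0.69 [0.60, 0.78]. A split by Gzmb gave 0.10 [-0.28, 0.52], -0.069 [-0.23, 0.098] and 0.022 [-0.078, 0.12] in that order.

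Klrg1 was higher in cells with granzyme transcripts and lower in cells with Tcf7, Tox or Pdcd1. In low-cycling CD8 cells it was at 50.7 CPM with a Gzma UMI and 11.96 CPM without at day +7, a ratio of 1.99 [1.42, 2.83], and at 74.9 and 37.5 CPM at day +14, 0.98 [0.56, 1.42]. With Gzmb, the granzyme B gene, the ratios were 1.22 [0.67, 1.91] and 1.88 [1.46, 2.46]. Cells with Tcf7, the gene of the stem-like factor TCF1, gave -1.78 [-3.75, -0.49] over 82 cells and -1.44 [-2.64, -0.55] over 138 cells. The exhaustion factor gene Tox gave -1.64 [-2.31, -1.14] and -0.56 [-0.95, -0.20], and Pdcd1, the gene of PD-1, -0.92 [-1.30, -0.60] and -1.04 [-1.44, -0.68]. Zeb2, a factor of terminal effector cells, gave 1.77 [1.30, 2.26] at day +7 over 79 cells and 0.29 [-0.28, 0.83] at day +14, where the interval included 0.

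Klrk1 and Nkg7 differed from Klrg1 in these splits. With Tcf7, Klrk1 gave -0.14 [-0.54, 0.23] and 0.41 [0.090, 0.72], and Nkg7 -0.39 [-0.51, -0.27] and -0.89 [-0.99, -0.80]. With Xcl1, a chemokine gene, Klrk1 was at 115 against 201 CPM at day +7, -0.79 [-1.37, -0.28] over 65 cells, and at 207 against 126 CPM at day +14, 0.71 [0.47, 0.96] over 213 cells, so the sign differed between libraries. The splits described were picked from all those run after their values were seen.

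**Figure D4:**
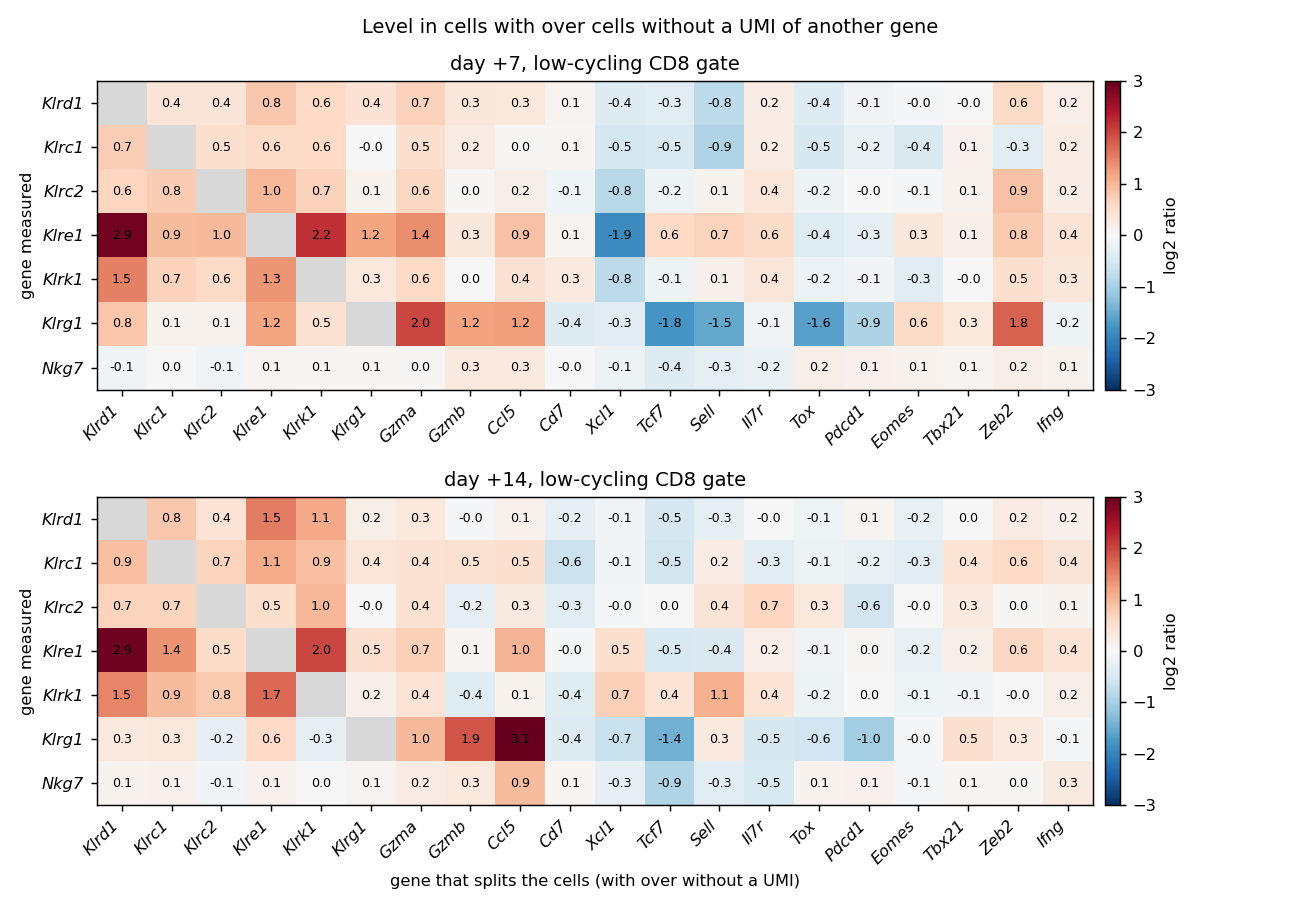
Log2 ratio of the level of each gene (rows) in low-cycling CD8 cells with over without a UMI of another gene (columns), day +7 above and day +14 below, all cells at 4000 UMIs. Red is higher with, blue is lower with, and grey is a gene against itself. Klrg1 was above 0 with Gzma, Gzmb and Ccl5 and below 0 with Tcf7, Tox and Pdcd1 on both days, and its value with Ccl5 at day +14, 3.11, rests on 58 cells without Ccl5.

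Of 9 ligand genes listed, the Qa-1 gene reached 10 CPM in the CD8 gate. H2-T23 was at 187 and 206 CPM, a log2 ratio of 0.14 [0.10, 0.17], and the other 8 stayed under that level. Besides Hcst, 4 further partner and adaptor genes were measured and 0 of them reached it, Tyrobp, the gene of the adaptor DAP12, being at 6.59 and 4.68 CPM.

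Of 10 signalling genes, 9 reached 10 CPM, and 7 of them had an interval above 0 and 1 below it. The remaining gene, Pik3r1, was above 0 with an interval that included 0. Of all genes, 73.8% had a ratio above 0, counted by sign with no regard to the interval. The gene below 0 was Ptpn6, which encodes SHP-1, a phosphatase recruited by inhibitory receptors, at 124 and 58.2 CPM, a log2 ratio of -1.08 [-1.14, -1.03]. In the CD4 gate Ptpn6 was at 177 and 99.6 CPM. Ptpn11, the gene of the related phosphatase SHP-2, gave 0.17 [0.11, 0.24], and Inpp5d, the gene of SHIP-1, 0.32 [0.24, 0.41]. The kinase genes Lck and Zap70 gave 0.17 [0.14, 0.20] and 0.39 [0.35, 0.44]. The PI3K subunit genes Pik3cd and Pik3r1 gave 0.53 [0.48, 0.60] and 0.028 [-0.036, 0.094], the exchange factor gene Vav1 0.27 [0.19, 0.37] and the adaptor gene Grb2 0.16 [0.11, 0.20]. The values of Lck, Ptpn11, Grb2 and Pik3r1 are smaller than the 0.22 by which median-ratio scaling lowers ratios between days.

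Of 12 other lectin receptor genes, 2 reached 10 CPM on either day. Klra3, of the Ly49 family, was at 3.67 and 10.4 CPM, from 242 and 688 UMIs. Klrb1b was at 10.5 and 8.65 CPM, from 691 and 575 UMIs, so the 2 differed in opposite directions.

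Genes with levels most like those of 4 of the genes over the 12 groups of cells were named by Pearson r among 2508 genes, as a description with no p, since the groups come from only 2 libraries. Klrd1 was most like Slamf7 (0.95), a receptor of cytotoxic lymphocytes, then Eif3k, Arl6ip5, Lfng and Vasp. Klrk1 was most like Ly6c2 (0.94), then Ugcg, Efhd2, Prf1 (0.94), the perforin gene, and Cd8b1, whose levels over these groups were set by the gates. Nkg7 was most like Plac8 (0.96), then Ctsd, Ptp4a3, Ubac2 and Cd27. Klrg1 gave lower values, with Mrpl4 (0.82), BC005624, Tes, Il18r1 (0.79), an IL-18 receptor chain gene, and Ppp3ca. Among the 8 genes, Klrc2 with Klrk1 gave 0.92 and Klrc1 with Klrk1 0.90, whereas Klrk1 with its adaptor gene Hcst gave 0.31.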

How the data were processed

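Single-cell UMIs were measured in spleen T cells of 2 libraries, 1 per day. The counts were used as deposited by the authors, whole UMI counts per gene and barcode, made with Cell Ranger 6.1.2 and mm10 according to the submitters' processing notes. Barcodes with 500 to 7500 genes and at most 15% mitochondrial UMIs were kept (7179 of 7355 and 7794 of 8043).

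Each cell was thinned to 4000 UMIs with a fixed seed. T cells had at least 5 UMIs over Trac, Trbc1, Trbc2, Cd3d, Cd3e and Cd3g and under 5 of myeloid and of erythroid markers. Levels were the UMIs of a gene in a gate per all UMIs of its cells (CPM), with exact Poisson, binomial and conditional binomial intervals, and log2 ratios were taken after adding 1 CPM. With 1 library per day no test was run. Genes averaging 10 CPM or more formed the background. The ratio code was tested on simulated data. Doublets were kept, since Scrublet's own threshold called 0 in both libraries, and an alternative left out the 433 and 518 highest scores.

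Named genes were the 8 genes, listed pathway genes at 10 CPM or more in the CD8 gate of either day, and, for Klrd1, Klrk1, Klrg1 and Nkg7, the 5 genes of highest Pearson r among those averaging 50 CPM or more. The genes, lists and splits were chosen with earlier results of these data known. Klrh1 and Trgc1 were not analysed here. Alternatives were gates from all UMIs or at 2 UMIs, thinning to 2000, a mitochondrial limit of 5%, per-cell means, median-ratio scaling, no CPM added, no myeloid and erythroid limit, and leaving out high doublet scores. Python 3.11.15, numpy 2.4.6, scipy 1.17.1, pandas 2.3.3 and scanpy 1.11.5 were used.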

Additional observations from a re-analysis of the deposited data

Results flagged for a closer look

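Klrg1 differed between days in opposite directions in G2/M cells of the 2 gates, with a log2 ratio of day +14 over day +7 of 0.16 in CD8 and -1.04 in CD4 cells, and the difference was not tested. Nkg7 did the same at 0.23 and -0.11, also not tested. The CD4 values rest on 103 and 122 cells of 1 library each.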

How the results depend on the processing

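No paired analysis was possible because each day was 1 library. The median log2 ratio of the 8 genes between days in the CD8 gate (-0.29) was -0.51 with median-ratio scaling, -0.22 with gates from all UMIs, -0.22 with thinning to 2000 UMIs and -0.24 as a mean over cells, and median-ratio scaling put 1 gene, Klrc1, at least 2-fold lower in place of 0. For CD8 over CD4, the median (0.98 at day +7, 1.01 at day +14) was 0.68 and 0.55 with gates at 2 UMIs, and 0.66 at day +14 with thinning to 2000. For G2/M over low-cycling cells, the median (-0.64 and -0.73) was -0.76 and -0.93 with gates from all UMIs and -0.40 and -0.58 with thinning to 2000. Of values whose interval left out 0, the sign turned for Hcst, CD8 over CD4 at day +7, with gates from all UMIs (0.081 against -0.070) and for Klrg1, CD8 over CD4 at day +14, as a mean over cells (-0.026 against 0.33), and the cause was not tested. Values of Klrg1 near 0 also changed sign: between days in the CD8 gate to -0.15 with median-ratio scaling and -0.0096 with thinning to 2000, for CD8 over CD4 at day +7 to 0.39 with gates at 2 UMIs, 0.076 with thinning to 2000 and 0.054 as a mean over cells, and for G2/M over low-cycling at day +14 to -0.0010 with gates from all UMIs and -0.047 with thinning to 2000. Of the other values of single genes under an alternative, 322 stayed within the counting interval of the main value and 92 left it. Leaving out NK marker cells, leaving out CD4 gate cells with any Cd8 UMI, and repeating the splits by a second gene without NK marker cells or high doublet scores were chosen after seeing the data. The CD4 classes are limited most by their number of cells, 43 to 217.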

Other observations

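Klrg1 was also read in T cells by Foxp3, the gene of the regulatory T cell factor, a split chosen after its values were seen. In T cells with 2 or more Foxp3 UMIs it was at 109 CPM [94.9, 124] at day +7 (131 cells) and 346 CPM [301, 395] at day +14 (44 cells). In T cells with 0 Foxp3 UMIs it was at 36.6 CPM [35.3, 38.00] and 38.9 CPM [37.5, 40.3]. Of the Foxp3 cells, 108 and 26 held a Cd8 UMI. Median depths were 13012 and 12623 UMIs in the Foxp3 cells and 9239.5 and 9204 in the others.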
